A study of Mus musculus with 40 samples.

Results

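The genes described here encode 9 enzymes of amino acid metabolism: Bhmt, Hpd, Fah, Gatm, Ass1, Asl, Dao, Prodh2 and Ddc. They were chosen by name, as a set of renal enzymes, and with earlier results of these data known. Counts of the set beside shares of all genes are therefore descriptive. The genes make up 9 of the 18194 mouse genes that have a probe set with 1 gene symbol on the array. Each was read from its probe set with the highest mean signal over all 40 arrays. The series measured RNA of whole organs from male C57BL/6 mice on Affymetrix mouse arrays, to compare rapidly growing juvenile organs with more slowly growing older ones. Each of the 8 groups holds 5 arrays: kidney at 1, 4 and 8 weeks of age, lung at the same ages, and heart at 1 and 4 weeks. By the labels, tissue is rapidly proliferating at the first age, slowly at the second and very slowly at the last. The labels name no genetic change and no treatment in any group. The design text speaks of 5 animals each, but the labels do not say whether kidney, lung and heart of 1 number came from 1 mouse.

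The proximal tubule of the kidney reabsorbs filtered amino acids and also converts them. Kidney makes arginine from citrulline through Ass1 and Asl, makes the creatine precursor guanidinoacetate through Gatm, and breaks down tyrosine, hydroxyproline and D-amino acids through Hpd, Fah, Prodh2 and Dao. Bhmt returns homocysteine to methionine with betaine as the methyl donor, and Ddc makes dopamine from L-DOPA. Many of these enzymes are also abundant in liver.

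Signals below are the deposited linear signals, in arbitrary units. Changes are differences of log2(signal + 16), given with their standard error (SE) and the adjusted p of limma. A gene counted as called where that p, adjusted by the Benjamini-Hochberg method over all genes tested in the comparison, was under 0.05. Genes entered a test where at least 1 group mean was no lower than a signal of 117.9, below which 40% of all signals lie. The number of arrays limits the precision.

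Before the comparisons, 2 of the 40 arrays were left out because organ markers went against their labels. The array labelled 1-week heart replicate 5 had a signal of 27187 for the lung surfactant gene Sftpc and 2396 for the cardiac myosin gene Myh6. The array labelled 1-week lung replicate 4 had 1983 for Sftpc and 36022 for Myh6. The kidney label held on all 15 kidney arrays: the phosphate transporter Slc34a1 of the proximal tubule lay between 17468 and 38878 there and at most at 163 in lung and heart. Some 1-week kidney arrays also carried genes of neighbouring organs. Alb, the liver's serum albumin, was at 11531 on replicate 1 and 2921 on replicate 5 against 451 to 886 on the other 3. The summed signal of 8 adrenal cortex genes was 4503 and 5089 on replicates 4 and 3 and at most 1441 on the other 3, and the same 2 arrays were highest in 6 adrenal medulla genes. The difference between the 3′ and 5′ actin probe sets, a sign of RNA quality or labelling, was 0.34 to 0.51 (log2) in kidney at 1 week, 0.61 to 1.43 at 4 weeks and 0.73 to 0.99 at 8 weeks. Its part in the results was not tested.

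In kidney all 9 enzyme genes rose between 1 and 8 weeks. Their log2 changes ran from 0.52 for Prodh2 to 5.76 for Hpd, with a median of 0.99 against -0.04 over all 13645 genes tested. Of all genes tested, 19.5% were called higher and 27.9% lower. On the single arrays, the signals at 8 weeks lay above every signal at 1 week for each of the 9 genes. Such a separation in either direction was found for 35.7% of all genes. Since these are bulk samples, more cells of a type and more RNA per cell cannot be told apart.

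**Figure D1:**
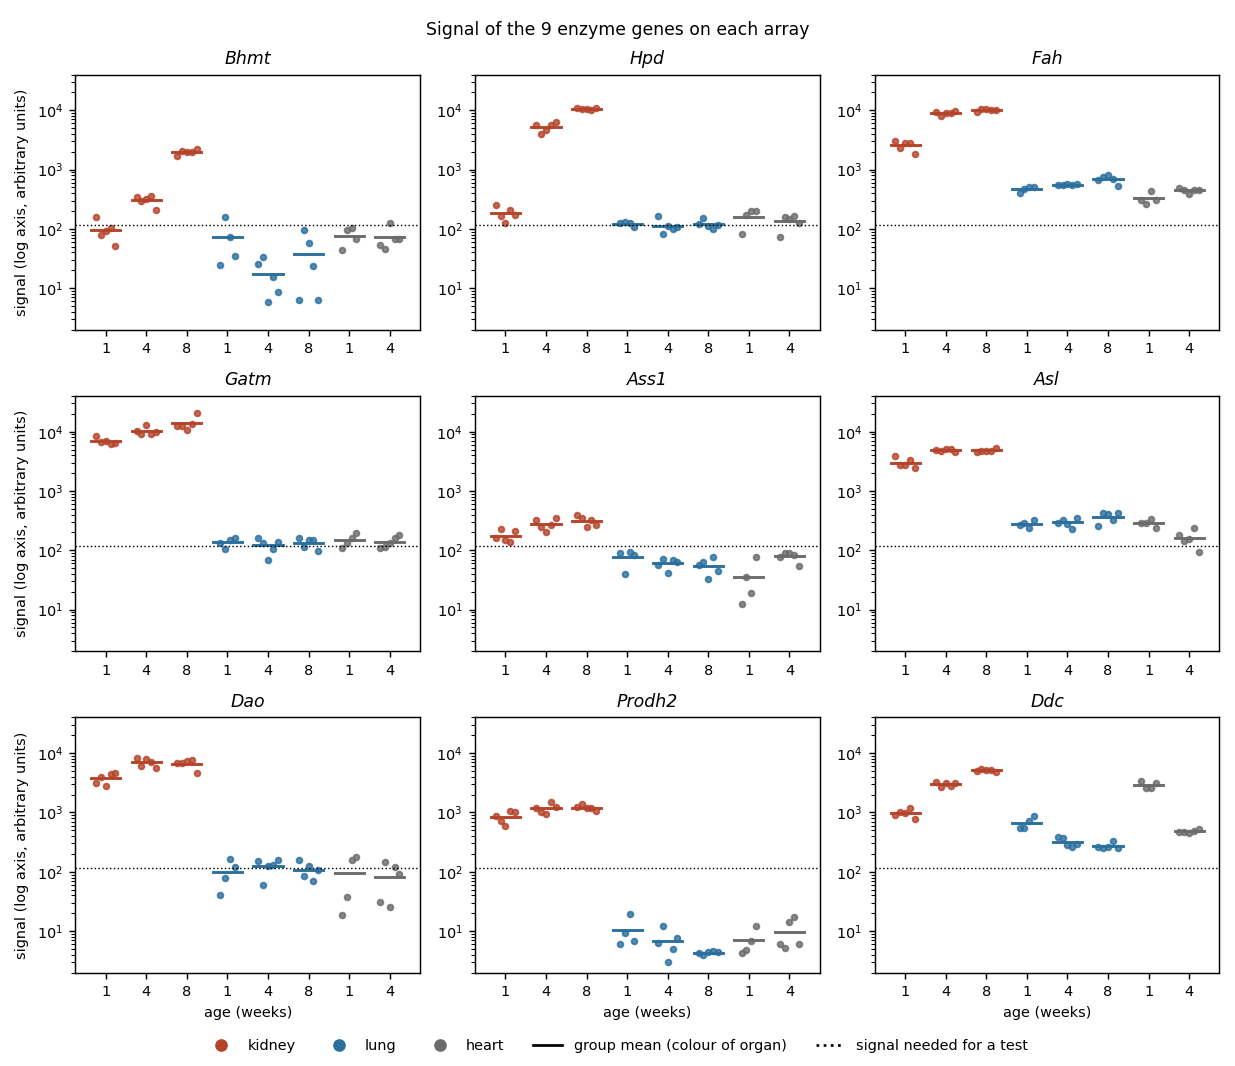
Signal of each enzyme gene (vertical log axis, arbitrary units) on each of the 38 arrays used, by organ and age in weeks. Points are arrays, short lines are group means, and the dotted line marks a signal of 117.9. In every panel the kidney points at 8 weeks lie above those at 1 week. Lung and heart lie far below kidney for Gatm, Dao and Prodh2 at every age, and Ddc in heart at 1 week lies above Ddc in kidney at 1 week.

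Tyrosine breakdown is represented by Hpd and Fah. Hpd, the dioxygenase that turns hydroxyphenylpyruvate into homogentisate, had the largest rise of the set. Its signals in kidney were 256, 162, 125, 212 and 173 at 1 week. At 4 weeks they were 5533, 3969, 4615, 5563 and 6377. At 8 weeks they were 11037, 10384, 10448, 10175 and 11053. The 3 ages did not overlap on any array, and the spread at 8 weeks was small, with a coefficient of variation of 3.78%. From 1 to 8 weeks Hpd rose by 5.76 ± 0.16 (SE, limma adjusted p = 6.39e-13), a 54.1-fold change on the scale of log2(signal + 16), second among the 13645 genes ranked by rise. The mean at 1 week, 186, was close to those of 1-week heart (162) and lung (121).

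The 250 bases before the RefSeq start of Hpd (chr5:123182724-123182973, minus strand of GRCm38.p6) are shown because this gene rose most of the set in kidney. Capitals mark the 1 motif match.
Hpd promoter: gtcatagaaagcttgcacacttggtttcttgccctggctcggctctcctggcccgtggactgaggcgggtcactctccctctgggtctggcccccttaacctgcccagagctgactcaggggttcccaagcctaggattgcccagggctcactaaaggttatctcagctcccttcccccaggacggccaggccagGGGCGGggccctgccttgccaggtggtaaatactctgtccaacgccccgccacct
The match is a GC box, GGGCGG, 55 bases before the start. A GC box on either strand stood in 32.7% of the 32851 windows of this length in the RefSeq table.

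Fah, the hydrolase of the last step of tyrosine breakdown, rose mostly by 4 weeks. Its kidney signals were 3009, 2338, 2823, 2835 and 1862 at 1 week. They were 9308, 7968, 9114, 8813 and 9592 at 4 weeks. They were 9211, 10392, 10588, 10250.2 and 10265 at 8 weeks. All older arrays lay above all 1-week arrays, and the 4-week and 8-week arrays overlapped. The rise from 1 to 4 weeks was 1.81 ± 0.12 (limma adjusted p = 9.09e-09), which is 91.0% of the log2 change reached by 8 weeks, 1.99 ± 0.12.

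Bhmt, the betaine-homocysteine methyltransferase, rose mostly after 4 weeks. Its kidney signals were 158, 78.9, 90.4, 105 and 51.3 at 1 week. They were 350.5, 292, 320.5, 352 and 211 at 4 weeks. They were 1686, 2044, 1940.2, 2015 and 2210.3 at 8 weeks. No arrays of different ages overlapped, and at 1 week only replicate 1 was above the level needed for a test. Bhmt rose by 1.56 ± 0.20 from 1 to 4 weeks and by 2.65 ± 0.20 from 4 to 8 weeks (limma adjusted p = 1.3e-05 and 6.7e-06). The later rise was the largest of the 13645 genes in that interval. By 4 weeks Bhmt had reached 37.1% of its log2 change of 4.21 ± 0.20 from 1 to 8 weeks, the lowest share among the 9. Bhmt is a liver gene too, and at 1 week its highest and lowest kidney signals were on the 2 arrays with high Alb. Without these arrays the change from 1 to 8 weeks was 4.22.

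The region before the RefSeq start of Bhmt (chr13:93637759-93638008, minus strand of GRCm38.p6) is shown for its late rise. Capitals mark 2 motif matches, a CCAAT box and a site form of HNF4, a nuclear receptor of liver and proximal tubule.
Bhmt promoter: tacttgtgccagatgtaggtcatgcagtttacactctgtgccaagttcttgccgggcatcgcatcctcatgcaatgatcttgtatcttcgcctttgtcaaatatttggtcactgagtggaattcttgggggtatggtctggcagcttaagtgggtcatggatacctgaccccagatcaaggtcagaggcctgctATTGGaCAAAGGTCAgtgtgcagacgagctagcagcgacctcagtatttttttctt
The CCAAT box reads ATTGG, on the minus strand relative to the gene, 56 bases before the start. CAAAGGTCA follows 50 bases before the start. CCAAT on either strand stood in 33.8% of all windows and CAAAGGTCA in 0.426%. Among the 11 windows of the 8 enzyme genes in the table, 5 held CCAAT and 1 held CAAAGGTCA.

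Creatine and arginine synthesis are represented by Gatm, Ass1 and Asl. Gatm, the amidinotransferase that makes guanidinoacetate, had kidney signals of 8353, 6736, 6924, 6221 and 6391 at 1 week. They were 10145, 9259.7, 12739.5, 9129.9 and 9951 at 4 weeks. They were 12544, 12665, 10798, 13246 and 20875 at 8 weeks. Both older groups lay above the 1-week group, and they overlapped each other. Gatm rose by 0.56 ± 0.16 from 1 to 4 weeks (limma adjusted p = 0.00851) and by 0.99 ± 0.16 from 1 to 8 weeks (adjusted p = 8.53e-05). With quantile normalization added, its change from 1 to 4 weeks was 0.30 (adjusted p = 0.0566), so that call was lost.

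Asl, argininosuccinate lyase, releases arginine from argininosuccinate. Its kidney signals were 3844, 2743, 2759.9, 3328 and 2402 at 1 week. They were 4933, 4757, 5144, 5142 and 4516 at 4 weeks. They were 4541, 4749.6, 4768, 4782 and 5302 at 8 weeks. Every 4-week and 8-week array was above every 1-week array, and the older groups overlapped. The rise from 1 to 4 weeks was 0.72 ± 0.11 (limma adjusted p = 9.63e-05), and the change from 4 to 8 weeks was -0.02 with a 95% interval of -0.26 to 0.22.

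Ass1, argininosuccinate synthase, makes the substrate of Asl. Its probe set was dim, with kidney signals of 158, 225, 149, 136 and 212 at 1 week. They were 324, 243, 202, 263 and 347 at 4 weeks. They were 396, 348, 245, 325 and 263 at 8 weeks. The 8-week arrays were all above the 1-week arrays, while 4 weeks overlapped both. Ass1 rose by 0.60 ± 0.17 from 1 to 4 weeks (limma adjusted p = 0.0103) and by 0.79 ± 0.17 from 1 to 8 weeks (adjusted p = 0.00144). Without the 1-week arrays high in adrenal genes the earlier change was 0.44 (adjusted p = 0.0932). A brighter probe set lists Gm5424 and Ass1 together and could not be assigned to either. Looked at after the data were seen, it had kidney means of 12742, 19795 and 24442 at the 3 ages (SD 1438, 2890 and 3107, n = 5 each). It was higher by 0.94 ± 0.12 at 8 than at 1 week (adjusted p = 1.47e-05).

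Dao and Prodh2 are oxidative enzymes of amino acid breakdown. Dao, the D-amino acid oxidase, had kidney signals of 3122, 3899.8, 2829, 4531 and 4642 at 1 week. They were 8216, 6098, 7829, 7032 and 5642 at 4 weeks. They were 6911, 6863, 7299.9, 7532 and 4683 at 8 weeks. The lowest signal at 8 weeks, on replicate 5, was only just above the highest at 1 week. Dao rose by 0.88 ± 0.17 from 1 to 4 weeks (limma adjusted p = 0.000512), and its change from 4 to 8 weeks was -0.07 with a 95% interval of -0.43 to 0.29.

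Prodh2, the dehydrogenase that starts hydroxyproline breakdown, changed least. Its kidney signals were 874, 728, 594, 1052 and 1013 at 1 week. They were 1169.8, 1018, 946, 1482 and 1226 at 4 weeks. They were 1239, 1380.0, 1185, 1173 and 1059.7 at 8 weeks. At 8 weeks every array was above every 1-week array by a small margin, while 4 weeks and 1 week overlapped. The changes were 0.46 ± 0.16 from 1 to 4 weeks (limma adjusted p = 0.0259) and 0.52 ± 0.16 from 1 to 8 weeks (adjusted p = 0.0123). The earlier call was lost without 1-week replicate 2 or 3 or without 4-week replicate 4 or 5, with adjusted p from 0.0538 to 0.0745.

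The region before the RefSeq start of Prodh2 (chr7:30493408-30493657, plus strand of GRCm38.p6) is shown because its signal was near 0 in lung and heart. Capitals mark 2 matches.
Prodh2 promoter: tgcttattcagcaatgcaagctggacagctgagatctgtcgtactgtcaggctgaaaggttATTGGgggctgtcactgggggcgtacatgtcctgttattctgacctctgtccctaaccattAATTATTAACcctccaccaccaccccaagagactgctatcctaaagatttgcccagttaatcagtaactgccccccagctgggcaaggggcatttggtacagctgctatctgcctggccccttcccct
ATTGG lies 189 bases before the start, and AATTATTAAC lies 128 bases before it. The latter matches, on the minus strand, the motif searched for HNF1, a factor of liver and renal tubule epithelium. This motif stood on either strand in 0.371% of all windows and in 1 of the 11 windows of the enzyme genes.

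Ddc, the aromatic amino acid decarboxylase, rose in both intervals. Its kidney signals were 922, 1017, 970.5, 1175 and 787 at 1 week. They were 3225, 2730.5, 3200.0, 2753 and 3092 at 4 weeks. They were 4967, 5352, 5191, 5148 and 4885 at 8 weeks. The 3 ages did not overlap. Ddc rose by 1.62 ± 0.10 from 1 to 4 weeks (limma adjusted p = 5.74e-09) and by 0.77 ± 0.10 from 4 to 8 weeks (adjusted p = 0.00146). It reached 67.8% of its log2 change of 2.38 ± 0.10 by 4 weeks. The adrenal medulla also expresses Ddc. Without the 2 arrays high in adrenal genes the change from 1 to 8 weeks was 2.48. A second Ddc probe set stayed at group means of 31.1 to 52.6 in kidney, under the level needed for a test. When both probe sets were averaged, the change from 4 to 8 weeks was 0.45 (adjusted p = 0.64) and that call was lost.

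RefSeq gives Ddc 2 starts, and the regions before both are shown because this gene moved in opposite directions between organs. The array does not tell which start was used. Capitals mark 1 match in each.
Ddc promoter, start 1: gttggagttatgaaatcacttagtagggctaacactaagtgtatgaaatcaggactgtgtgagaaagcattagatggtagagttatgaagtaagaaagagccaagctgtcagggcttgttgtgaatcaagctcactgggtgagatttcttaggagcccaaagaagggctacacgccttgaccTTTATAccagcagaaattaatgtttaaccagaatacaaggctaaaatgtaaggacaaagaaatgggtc
Ddc promoter, start 2: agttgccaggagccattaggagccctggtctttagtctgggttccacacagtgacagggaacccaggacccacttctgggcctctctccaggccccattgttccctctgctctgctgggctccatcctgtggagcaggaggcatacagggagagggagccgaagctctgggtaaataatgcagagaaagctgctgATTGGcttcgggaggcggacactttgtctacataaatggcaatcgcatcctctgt
The first window (chr11:11898145-11898394, minus strand of GRCm38.p6) holds TTTATA, the reverse complement of TATAAA, 68 bases before the start, a motif on either strand of 12.4% of all windows. The second (chr11:11890409-11890658, minus strand) holds ATTGG 55 bases before the start. In all, 8 motifs were searched on both strands. These were the TATA box TATAAA, the CCAAT box, the GC box GGGCGG, the HNF1 motif, the 3 HNF4 forms CAAAGTCCA, CAAAGTTCA and CAAAGGTCA, and TTANGTAA. None of these motifs contains another. The HNF4 forms CAAAGTCCA and CAAAGTTCA, and TTANGTAA, the motif of PAR bZIP factors, matched in none of the 11 windows, against 0.384%, 0.335% and 2.06% of all windows. A match in letters is a description of the window only.

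Between 1 and 4 weeks all 9 genes were called higher in kidney, against 17.3% of all genes tested, and 7 of the 9 separated completely on the arrays, against 30.4%. Ass1 and Prodh2 were the ones that overlapped. Between 4 and 8 weeks Bhmt, Hpd and Ddc were called higher, 3 of 9, where 0.227% of all genes tested were called higher. The same 3 separated completely, against 2.97% of all genes. Hpd rose by 1.04 ± 0.16 in that interval (limma adjusted p = 0.0045), a 2.06-fold change. The other 6 were not called, with changes from -0.07 for Dao to 0.42 for Gatm. Gatm's 95% interval, 0.09 to 0.76, lay above 0, and its adjusted p was 0.411. The share of the log2 change reached by 4 weeks varied among the genes, but differences in this share were not tested. By 4 weeks Asl, Dao and Fah had reached at least 91.0% of the log2 difference between 1 and 8 weeks and Prodh2 88.7%. Hpd had reached 81.9%, Ass1 76.5%, Ddc 67.8%, Gatm 56.9% and Bhmt 37.1%.

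**Figure D2:**
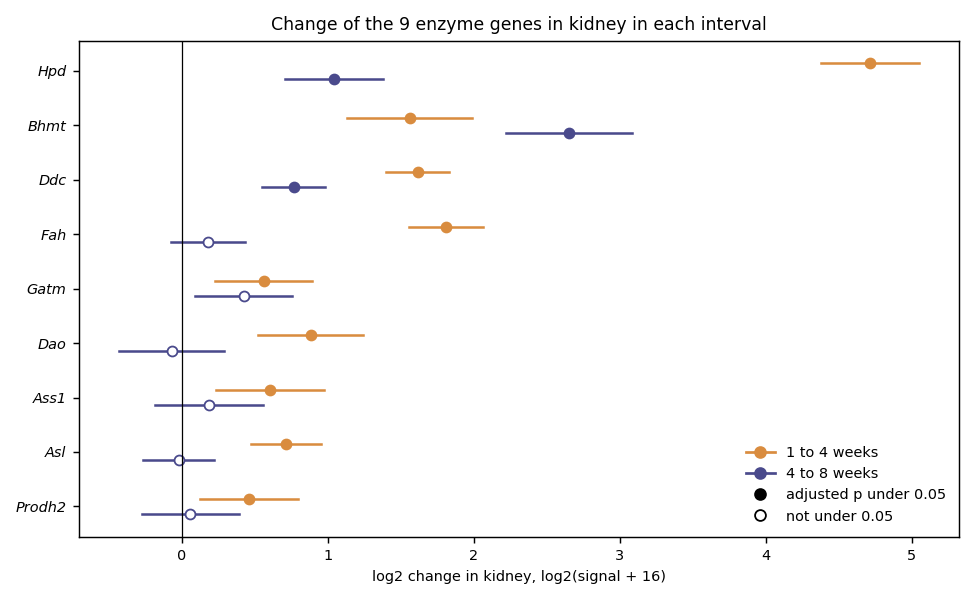
Change of each enzyme gene in kidney from 1 to 4 weeks (orange) and from 4 to 8 weeks (blue), as a difference of log2(signal + 16) on the horizontal axis. Points are estimates, bars are 95% intervals, and filled points have a limma adjusted p under 0.05. Bhmt alone has its larger change in the later interval, 2.65 against 1.56, and 6 of the later points are open.

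In lung and heart most of the set was dim. In lung Bhmt, Ass1 and Prodh2 did not reach the level for a test. In heart Bhmt, Ass1, Dao and Prodh2 did not. Prodh2 signals lay between 3.0 and 19.8 over the lung and heart arrays used. Gatm lay between 68.7 and 193 there, and Hpd between 73.2 and 199. Group means of Hpd and Gatm there were between 113 and 162 and thus close to the level for a test. Fah and Ddc had higher group means in both organs, of at least 273. Asl had 279 to 369 in lung and 290.3 in 1-week heart, but 162 ± 52.6 (SD, n = 5) in 4-week heart, where replicate 5, at 93.1, was under the level.

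Kidney was above lung for 8 of the 9 genes at 1 week, against 24.3% of all genes tested. At 4 and 8 weeks kidney was above lung for all 9, against 27.9% and 29.1%. Bhmt was the exception at 1 week, with a difference of 0.52 and a 95% interval of -0.27 to 1.30. In lung and heart Bhmt, Ass1 and Prodh2 were under the level for a test at every age. They entered these comparisons only through kidney, so their calls follow in part from that filter. Dao was under the level in heart too. The differences at 8 weeks ran from 2.24 for Ass1 to 6.53 for Gatm. The 2.24 is set against a lung mean of 54.9, under the level for a test, and the probe set of Gm5424 and Ass1 gave 5.54. With that probe set in place of Ass1, Asl would be the lowest, at 3.68. Against heart, kidney was higher for 6 genes at 1 week, where 29.4% of all genes were called higher, and for all 9 at 4 weeks, against 30.9%. Bhmt and Hpd were not called against heart at 1 week (0.25 and 0.21), while Ddc differed by -1.57 ± 0.12 (limma adjusted p = 5.26e-13) and was the 1 gene lower in kidney, where 22.2% of all genes were. The Hpd call against lung at 1 week was lost with both arrays left out restored (0.43, adjusted p = 0.093), and without any 1 of 5 arrays: 1-week kidney replicate 1 or 4, or 1-week lung replicate 1, 3 or 5. The Ddc difference from lung at 1 week, 0.55 (adjusted p = 0.000404), was 0.06 (adjusted p = 0.906) with those arrays restored and 0.33 (adjusted p = 0.129) with both probe sets averaged. Without 1-week lung replicate 2 Bhmt was called at 0.92 (adjusted p = 0.0491).

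Ddc went the other way in lung and heart. In heart its signals were 3339, 2628, 2614 and 3101 at 1 week and 462, 471, 446, 491 and 519.9 at 4 weeks. Every 1-week heart array was far above every 4-week one, and such a separation held for 24.5% of genes in heart. Ddc fell by 2.57 on the log2 scale (SE 0.11, limma adjusted p = 1.37e-06), which placed it at rank 27 of the falls among the 12792 genes tested in heart. In lung the signals were 549.6, 542, 715 and 869 at 1 week, 393, 368, 280.0, 261 and 299.5 at 4 weeks and 264, 256, 257, 331 and 255 at 8 weeks. All 1-week arrays were above all older ones, a separation found for 33.5% of genes at 4 weeks and 36.6% at 8 weeks. The fall from 1 to 8 weeks was by 1.23 (SE 0.15, adjusted p = 1.5e-05), most of it by 4 weeks, when it was by 1.02 (adjusted p = 9.79e-05). Lung arrays also carried heart muscle genes. The summed signal of 8 such genes in lung was 3763 to 10079 at 1 week, 5171 to 11002 at 4 weeks and 3817 to 11126 at 8 weeks. In 1-week heart it was 244334 to 302159. The part of heart RNA in the lung fall of Ddc was not tested.

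The difference of the changes was tested directly for Ddc and the rest. From 1 to 8 weeks the change in kidney exceeded that in lung for 7 of the 9 genes. Of all genes tested 11.9% were called higher. Among the 7 genes, Bhmt, Ass1 and Prodh2 were under the level for a test in lung at every age. Their differences from lung in both intervals rest in part on such signals, as does that of Bhmt from heart. Ddc differed by 3.61 ± 0.17 (limma adjusted p = 3.94e-17) and Hpd by 5.78 ± 0.29. Asl (0.33, 95% interval -0.14 to 0.79) and Dao (0.63, -0.50 to 1.76) were not called. From 1 to 4 weeks 7 genes were called against lung, where 10% of all genes were. Without 4-week lung replicate 3 this was 4, since Gatm, Asl and Prodh2 were no longer called. Against heart 5 were called, where 10.2% of all genes were. Bhmt was lost there with an offset of 1 in place of 16 (1.84, adjusted p = 0.0931), and Ddc differed by 4.18 ± 0.17 (adjusted p = 1.63e-18). The comparisons with lung and heart share the kidney arrays. The second Ddc probe set had heart means of 703 at 1 week and 154 at 4 weeks (SD 155 and 51.5).

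**Figure D3:**
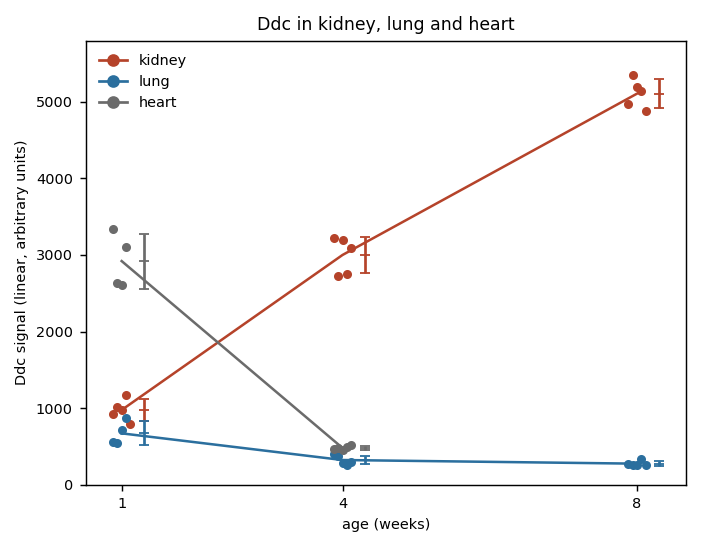
Ddc signal (vertical linear axis, arbitrary units) against age in weeks. Points are arrays, lines join the group means, and the bars beside them are the mean with the SD. Kidney climbs from a mean of 974 to 5109, lung falls from 669 to 273, and heart falls from 2920.5 at 1 week to 478 at 4 weeks.

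Fah and Asl were the other members called in the reference organs. In lung Fah rose by 0.52 ± 0.11 from 1 to 8 weeks (limma adjusted p = 0.00169), from a mean of 477 to 692. Together with the fall of Ddc, 2 of the 6 members tested in lung were called from 1 to 8 weeks, where 44.3% of all genes were. From 1 to 4 weeks Ddc was the 1 member called in lung, where 40% of all genes were. From 4 to 8 weeks limma called 0 of the 6 (1 had an unadjusted p under 0.05), where 2.05% of all genes were. Without 8-week lung replicate 5 Fah was called in that interval, at 0.39 (adjusted p = 0.0414). Asl in lung was not called from 1 to 8 weeks, at 0.37 (adjusted p = 0.0677), but was called without 8-week lung replicate 1, at 0.48 (adjusted p = 0.0106). In heart 3 of the 5 tested were called, against 26.6% of all genes. Asl fell there by 0.83 on the log2 scale (SE 0.21, adjusted p = 0.0172) from 290.3 to 162, and Fah rose by 0.45 ± 0.14 (adjusted p = 0.0416). The Fah call in heart was lost in 10 of 20 alternatives. Those gave changes of 0.31 to 0.45 and adjusted p of 0.0735 to 0.258, and 7 of them left out 1 heart array, each but 1-week replicate 3 and 4-week replicate 3. Without 1-week heart replicate 3 the Asl change was -0.76 (adjusted p = 0.051).

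Other genes of these pathways were taken from 9 lists, chosen with earlier results of these data known. The lists hold 120 genes besides the 9, of which 104 were on the array and 95 were tested in kidney. From 1 to 8 weeks 73 of the 95 rose, 4 fell and 18 were not called. The median change of the 95 was 0.96 against -0.04 over all genes tested. Over all genes 19.5% were called higher and 27.9% lower, which is also the background of the single lists below. From 4 to 8 weeks limma called 0 of the 95 (17 had an unadjusted p under 0.05). The share called higher over all genes was 0.227% in that interval, so a count of 0 among 95 is near the background.

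Every tested gene of the tyrosine list rose from 1 to 8 weeks: 5 of 5 besides Hpd and Fah. Hgd, an enzyme that acts between them in the pathway, rose by 2.28 ± 0.10. It went from a mean of 2345 at 1 week to 10049.8 at 4 weeks and 11411 at 8 weeks. Of the methionine and betaine list 10 of 14 rose. Gnmt, the glycine methyltransferase that consumes S-adenosylmethionine, rose by 3.77 ± 0.22 from a mean of only 30.0, and Bhmt2, a methyltransferase related to Bhmt, by 2.02 ± 0.14. Bhmt2 went from 491 to 1695 and 2012, so most of its rise came by 4 weeks. Mtr, another route from homocysteine to methionine, changed by -0.23 and was not called.

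In the arginine and creatine list 5 of 7 rose. Gamt, which completes creatine, rose by 0.82 ± 0.11, and Oat, which links ornithine to glutamate, rose most, by 1.66 ± 0.12. The proline list had 6 of 10 higher and 1 lower. Prodh, the proline counterpart of Prodh2, rose by 3.21 ± 0.12, while Aldh18a1, the first enzyme of proline synthesis, fell by 2.11 on the log2 scale (SE 0.18). In the glycine, serine and D-amino acid list 8 of 11 rose. Gldc of the glycine cleavage system rose by 4.22 ± 0.26 and Ddo, the oxidase of D-aspartate, by 2.48 ± 0.19. Phgdh, which starts serine synthesis, fell by 0.87 (SE 0.11).

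Of the list of amines, tryptophan and histidine 8 of 12 rose. Haao of the kynurenine pathway rose by 4.14 ± 0.25. Hdc, the histidine decarboxylase, fell by 6.09 on the log2 scale (SE 0.17), from a mean of 1517 at 1 week to 11.3 and 6.0, the opposite direction to Ddc. Maob, which breaks down dopamine, rose by 0.85 ± 0.14, and Maoa changed by 0.02 and was not called. Lysine breakdown had 6 of 6 higher, led by Aass with 4.36 ± 0.11, and branched-chain breakdown 16 of 18, led by Mmut with 1.41 ± 0.13. Among glutamate, glutamine, aspartate and alanine genes 10 of 13 rose, led by Abat with 2.00 ± 0.18. Asns, which makes asparagine, fell by 0.56 (SE 0.16).

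**Figure D4:**
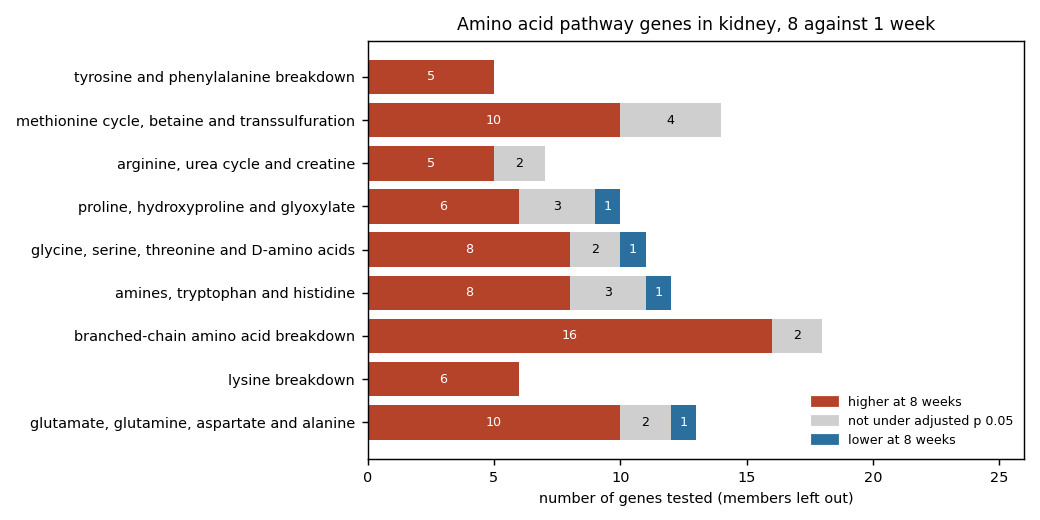
Number of genes (horizontal axis) in each amino acid list called higher, called lower or not called by limma in kidney at 8 against 1 week, with the 9 enzyme genes left out. A gene can be in more than 1 list. The lists of tyrosine and lysine breakdown hold no gene that was lower or not called, and 4 lists hold 1 lower gene each.

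Most markers of the tubule rose over the same ages. Over all genes tested 19.5% were called higher from 1 to 8 weeks and 27.9% lower. Of 16 proximal tubule genes 15 were called higher and 1 lower from 1 to 8 weeks, with a median of 1.14. The lower one was the amino acid transporter gene Slc7a13 (-0.88). Their summed signal was 100919 to 124443 at 1 week, 185137 to 237687 at 4 weeks and 209057 to 256114 at 8 weeks. From 4 to 8 weeks their median change was 0.16. Of 8 distal nephron genes 7 were higher and 1, Atp6v1b1 (-0.67), lower from 1 to 8 weeks. The part of tubule cell number in the change of the enzymes was not tested. Of 15 liver genes 5 were higher and 5 lower. Their summed signal was between 13826 and 43252 at 1 week and between 9468 and 10703 at 8 weeks. Much of the 1-week sum came from the listed genes Serpina6 (8396 to 16321) and Afp (2772 to 5367). Both were high on every 1-week kidney array, also where Alb was low, so the sum is not a measure of liver tissue alone.

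The genes with the most similar profiles over the 8 group means were found among 13636 others by the root mean square difference of centred log2 means. For Bhmt the nearest were Apob and D630023F18Rik (0.55 and 0.68), and for Hpd Guca2b and Haao (0.41 and 0.49). For Fah they were Gjb2 and Khk (0.20 and 0.21). For Gatm they were Defb29 and Mep1a (0.17 and 0.19), for Dao Ttc36 and Pou3f3 (0.15 and 0.20), and for Prodh2 Slc6a18 and Agxt2 (0.18 and 0.19). The set did not share a single profile. Gatm, Dao and Prodh2 lay within 0.30 to 0.34 of each other, all high in kidney from 1 week on. Ass1 had Casr and Etnppl (0.20 and 0.22) and Asl Tmem72 and Vdr (0.27 and 0.27). Ddc had the most distant nearest gene of the 9, Afmid at 0.64, followed by Lad1 at 0.68.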

How the data were processed

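The authors deposited intensity values, linear signals per probe set from 0 to 69706.7, scaled so that an array's mean, less the top and bottom 2%, is 500. RMA and Partek 6.6 are named without a role, per the submitters' processing notes. These values are not on the log2 scale that RMA writes, and their summary method and genome build are not given in the sources used here. A single symbol was listed for 34958 of the 45101 probe sets, none for 9211 and several for 932. Ages were compared within each organ, and organs in 1 fit of 38 arrays, with limma 3.58.1 (lmFit and eBayes, R 4.3.3) on log2(signal + 16). A run on simulated data, with independent noise for each gene, was a check of the code only. The offset understates folds of dim genes. Groups came from the labels. The members, lists and tests were chosen with earlier results of these data known. The rule names all members, the largest riser and faller of each list in kidney from 1 to 8 weeks, and each member's 2 nearest profiles; other list genes were named after their values were seen. Promoter windows are RefSeq's (GRCm38.p6); figures were drawn with Python 3.11.15 and matplotlib 3.10.9. Nothing says that arrays of a group came from separate extractions, so p-values measure the spread between these arrays.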

Additional observations from a re-analysis of the deposited data

Results flagged for a closer look

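Single arrays stood apart from the rest of their group in 6 of 72 groups tested with Dixon's test, where chance gives about 1 in 20. They were Bhmt at 127 on 4-week heart replicate 3, Gatm at 12739.5 on 4-week kidney replicate 3 and 20875 on 8-week kidney replicate 5, Dao at 4683 on 8-week kidney replicate 5, Fah at 9211 on 8-week kidney replicate 1 and Ddc at 331 on 8-week lung replicate 4. Gatm and Dao stood apart on the same 8-week kidney array, high for one and low for the other.

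The change with age differed between organs by limma's test of the difference in 19 cases. From 1 to 8 weeks kidney exceeded lung, in log2 units, by 4.99 for Bhmt, 5.78 for Hpd, 1.02 for Gatm, 1.17 for Ass1, 1.48 for Fah, 0.87 for Prodh2 and 3.61 for Ddc. From 1 to 4 weeks it exceeded lung by 2.79 for Bhmt, 4.83 for Hpd, 0.75 for Gatm, 0.65 for Asl, 1.59 for Fah, 0.66 for Prodh2 and 2.63 for Ddc. From 1 to 4 weeks it exceeded heart by 1.66 for Bhmt, 4.93 for Hpd, 1.54 for Asl, 1.36 for Fah and 4.18 for Ddc. In lung Bhmt, Ass1 and Prodh2 were under the level for a test at every age, and in heart Bhmt was, so their differences rest in part on signals under that level. The excess of Ass1 over lung, 1.17, was larger than its change in kidney, 0.79. The same held for Bhmt, Hpd, Gatm, Prodh2 and Ddc, but not for Fah (1.48 against 1.99). With the probe set of Gm5424 and Ass1 it did not hold. There the excess was 0.79 (limma adjusted p = 0.0472) and the kidney change 0.94.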

How the results depend on the processing

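All 9 enzyme genes were called higher in kidney from 1 to 8 weeks under each of the 27 alternatives run, with log2 changes of 5.44 to 5.89 for Hpd, 3.70 to 4.43 for Bhmt and 0.40 to 0.63 for Prodh2. From 1 to 4 weeks 8 or 9 were called, and from 4 to 8 weeks 2 or 3. Leaving out 1 array at a time gave 0 to 1 members called in lung from 4 to 8 weeks (1 without 8-week replicate 5) and 4 to 8 for the excess of the kidney change over lung from 1 to 4 weeks. With the probe set of Gm5424 and Ass1 in place of Ass1, chosen after seeing the data, the kidney change from 1 to 4 weeks minus that of heart was 0.88 (limma adjusted p = 0.0319) where Ass1 gave -0.41; the cause was not tested. The labels do not say that replicate numbers pair arrays. Residual correlations of same-numbered arrays were -0.28 to 0.31 over 15 kidney pairs (3 over 0.1), -0.10 to 0.25 over 13 lung pairs and 0.01 to 0.52 over 4 heart pairs, of which 3 were over 0.1. With the replicate block 6186 genes were called in kidney from 1 to 8 weeks against 6472, Asl in lung was called at 0.43 (adjusted p = 0.0159) and Fah in heart was not, at 0.44 (adjusted p = 0.105). Over all genes, calls in kidney from 4 to 8 weeks went from 85 to 55 without 4-week replicate 4 and to 50 without 8-week replicate 2. In lung they went from 281 to 143 without a filter, 15 with all arrays as labelled, 167 with the block and 115 to 184 leaving out single arrays. Dim signals limit Ass1 everywhere, Asl in 4-week heart, and outside kidney all members but Asl, Fah and Ddc.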
